A study of Mus musculus with 12 samples.

Results

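The receptors of the epidermal growth factor (EGF) family, their ligands and 1 feedback inhibitor were followed through 12 RNA sequencing libraries of NU1, a line of normal mouse urothelial cells that became immortal on its own in culture. The set was a fixed list of 10 symbols, Egfr, Erbb2, Erbb3, Areg, Ereg, Hbegf, Tgfa, Btc, Epgn and Errfi1, and all 10 were found among the 23337 rows of the raw count table. All 10 passed the filter on low counts and were among the 12406 genes tested. The 4 groups were proliferating cells with the control hairpin shNT, proliferating cells with the hairpin sh4 against Stag2, quiescent cells with shNT and quiescent cells with sh4. The labels give the genotype as WT for shNT and Stag2-KD for sh4. Each group had 3 libraries, 1 from each of experiments 5, 7 and 9, and the labels give each experiment its own batch number.

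Several features of the culture bear directly on these genes. The growth medium of every group held EGF at 5 ng/ml, so the receptor's ligand was supplied in all 4 groups. Quiescent cells were grown to confluence and then received 1 µM rosiglitazone, which activates PPAR gamma, and 0.5 µM erlotinib, which blocks the kinase of the EGF receptor; they are labelled day 7. Confluence, time and both drugs therefore came together, and their parts in any difference between the states cannot be told apart. The knockdown was read with 1 hairpin only, so loss of Stag2 and other effects of that hairpin cannot be told apart either. The cells came from 1 line, and nothing in the labels says more of how the cultures of an experiment were separated, so the p-values measure the spread between these libraries.

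As background, the ligands are made as membrane-bound precursors and are released by proteases of the ADAM family. They bind receptors that pair with each other and phosphorylate their own tails, which recruit adaptors and start the RAS-RAF-MEK-ERK cascade and the PI3 kinase branch. EGFR binds all the EGF-like ligands listed here, ERBB2 has no ligand of its own and serves as a partner, and ERBB3 binds neuregulins and has a weak kinase. ERK output in turn induces several of the ligand genes and the inhibitor Errfi1 (also called Mig6), which closes loops in both directions. In the urothelium this receptor family is known for its part in growth and in repair after injury.

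The libraries held between 14524429 and 21987539 counts. Stag2, which checks the labels, was 107 to 145 CPM in the 6 shNT libraries and 9.43 to 33.3 CPM in the 6 sh4 libraries, with no overlap. CPM gives a gene's counts in every 1000000 counts of the library, after TMM scaling. The cell type named in the labels was checked against 20 urothelial and epithelial markers. Their summed level was at least 13150 CPM in every library, with means of 4600 CPM ± 1239 (SD, n = 3) for Krt8 and 3781 ± 716 (SD, n = 3) for Krt18 in proliferating control cells. The basal marker Trp63 was listed at 0 in all 12 libraries, and the basal keratin Krt5 averaged 3.49 CPM ± 0.401 (SD, n = 3) in proliferating control cells. The uroplakin genes of the list were also low in these cells. Upk1a and Upk3b averaged 1.14 and 1.20 CPM, Upk2 0.358, Upk1b 0.0764 and Upk3a 0. Other markers of the list stood higher in the same cells. Krt7 averaged 2499 CPM, Krt20 1224, Elf3 134, Gata3 28.0 and Foxa1 20.8. The list was thus mixed, and its sum alone does not tell urothelial from other epithelial cells. Endothelial, smooth muscle and fibroblast lists summed to at most 0.239, 0.775 and 2.27 CPM in any library. The immune list summed to between 15.6 and 170 CPM, mostly from Csf1r at 10.5 to 163 CPM.

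Epgn, Ereg, Areg and Btc lie in 1 stretch of chromosome 5 of the mouse genome (build GRCm38.p6, RefSeq), in that order. The stretch spans 375 kb from the start of Epgn to the end of Btc, and Areg lies at chr5:91139599-91148432, 45.95 kb beyond Ereg. The others are spread over chromosomes 4 (Errfi1), 6 (Tgfa), 10 (Erbb3), 11 (Egfr and Erbb2) and 18 (Hbegf). RefSeq promoter entries were used for 7 of the 10 members. Those of Ereg, Erbb3 and Hbegf were not searched, which does not mean that these genes have no entry. The 150 bases before the start are shown for Areg, Tgfa and Egfr, each past the threshold in at least 1 comparison, Egfr only with the experiment number in the model, and for Errfi1, whose log2 fold changes lay between -0.02 and 0.04 in the 4 comparisons. All 4 are on the plus strand and are written 5′ to 3′, with motif matches in capitals.
Areg, chr5:91139449-91139598: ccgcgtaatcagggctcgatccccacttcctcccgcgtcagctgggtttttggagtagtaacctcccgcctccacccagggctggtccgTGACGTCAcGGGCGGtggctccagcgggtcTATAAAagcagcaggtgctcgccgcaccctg
Tgfa, chr6:86195072-86195221: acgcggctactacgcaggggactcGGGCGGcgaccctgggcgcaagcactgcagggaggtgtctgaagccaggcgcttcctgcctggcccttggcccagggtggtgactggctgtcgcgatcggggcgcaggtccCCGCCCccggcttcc
Egfr, chr11:16752053-16752202: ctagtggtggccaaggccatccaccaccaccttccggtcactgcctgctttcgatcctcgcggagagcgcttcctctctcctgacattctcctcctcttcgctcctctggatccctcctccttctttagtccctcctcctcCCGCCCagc
Errfi1, chr4:150854920-150855069: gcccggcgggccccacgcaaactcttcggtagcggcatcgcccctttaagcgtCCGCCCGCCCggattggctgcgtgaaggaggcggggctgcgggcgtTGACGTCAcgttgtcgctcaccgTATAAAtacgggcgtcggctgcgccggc
The motifs searched, on both strands, were the cAMP response element TGACGTCA, the AP-1 site TGANTCA, the TATA box TATAAA, the GC box GGGCGG and the cell-cycle homology region TTTGAA. Areg has a cAMP response element whose first base lies 61 bases before the start, a GC box at 52 and a TATA box at 31. The Errfi1 start shown, the second of a pair of entries, has the same response element at 51 and a TATA box at 28, with overlapping GC boxes at 97 and 93. Tgfa has GC boxes at 126 and 15, and Egfr has 1 at 9. Among all 32851 promoter entries, windows of this length hold the response element in 1.36%, the AP-1 site in 4.24%, the TATA box in 7.57%, the GC box in 28.6% and the cell-cycle homology region in 9.07%. Areg and this Errfi1 start thus both hold a response element and a TATA box in these windows. The other Errfi1 entry, chr4:150853646-150853795, holds none of the motifs. Among the members searched but not shown, Epgn has a TATA box at 86.

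To compare genes with each other, CPM was divided by the length of all exons in kilobases. In proliferating control cells the most abundant members on this scale were Areg at 53.2 CPM per kb ± 21.8 (SD, n = 3), Tgfa at 47.5 ± 4.26 (SD, n = 3) and Hbegf at 35.6 ± 17.8 (SD, n = 3). Their ranges over the 3 libraries overlapped. Errfi1 followed at 27.9 CPM per kb ± 1.69 (SD, n = 3), Erbb2 at 23.6 ± 6.19 (SD, n = 3), Egfr at 14.6 ± 2.32 (SD, n = 3) and Erbb3 at 12.9 ± 2.81 (SD, n = 3), and neighbours in this order overlapped except Erbb2 and Egfr. Btc at 3.75 CPM per kb ± 0.425 (SD, n = 3) and Ereg at 3.55 ± 1.32 (SD, n = 3) were lower and overlapped each other. Epgn stood last at 0.262 CPM per kb ± 0.0489 (SD, n = 3), from 2 to 20 counts in any of the 12 libraries. Among the related genes outside the set, Egf itself had at most 1.19 CPM in a library, Erbb4 was at 0 counts in all 12 libraries and Nrg2, Nrg3 and Nrg4 had at most 5 counts. Nrg1, a neuregulin, had 4.09 CPM per kb ± 1.56 (SD, n = 3).

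**Figure D1:**
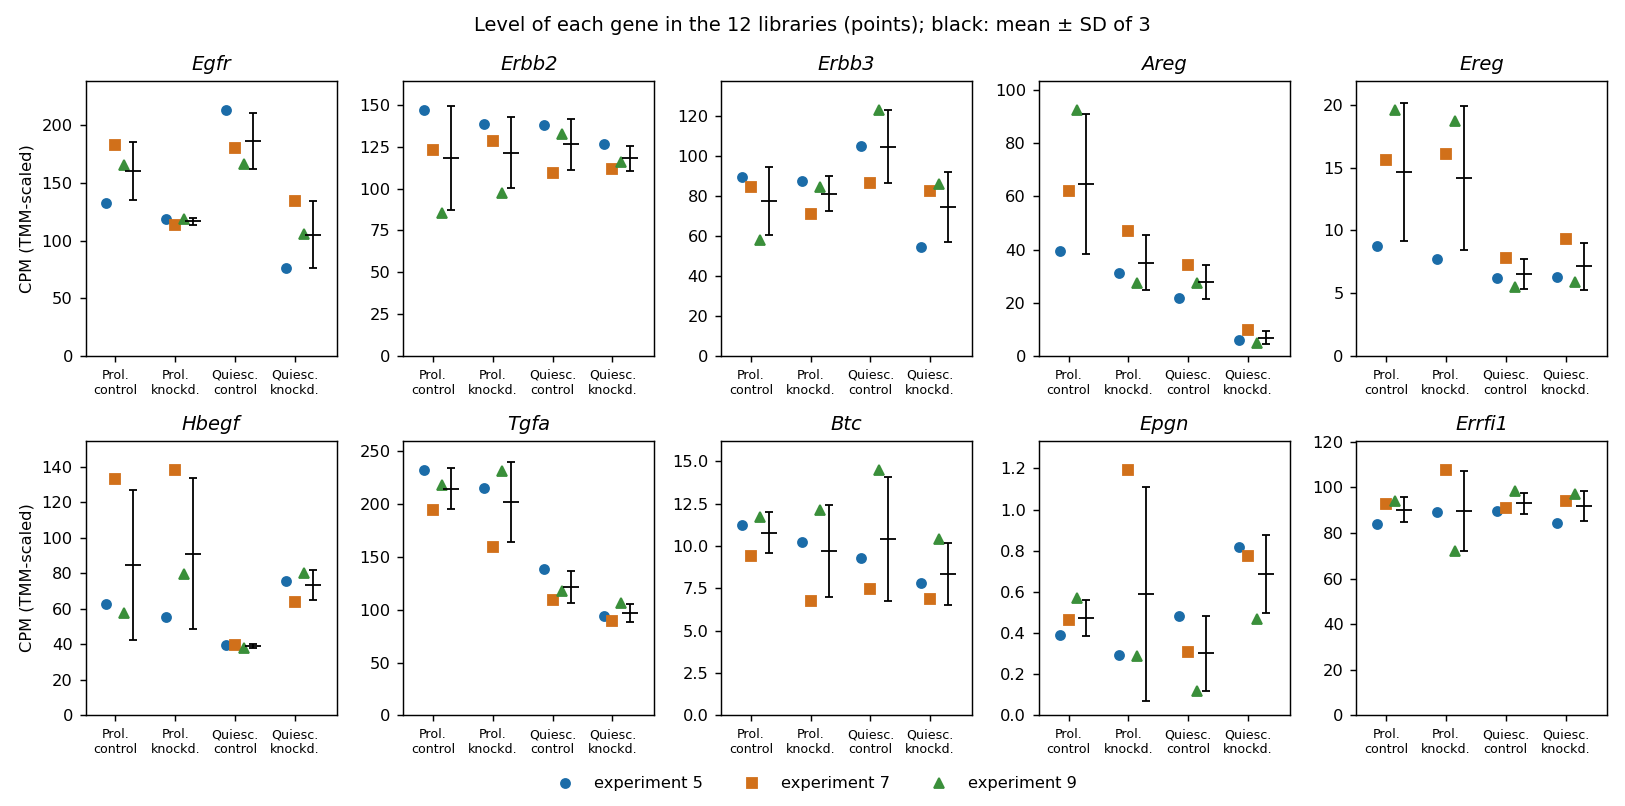
Level of each of the 10 genes in every library, as TMM-scaled CPM on linear axes from 0, by group (horizontal axis) and experiment (symbol). Black marks give the mean and SD of 3 libraries. Areg is lowest in quiescent knockdown cells, at 4.92 to 9.60 CPM, and Errfi1 lies between 72.2 and 108 CPM in all 12 libraries.

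The first comparison was of quiescent with proliferating control cells. Of the 10 members 4 fell, all ligands, and 0 rose: Areg, Ereg, Hbegf and Tgfa. Over all 12406 genes 20.0% were called in this comparison (edgeR quasi-likelihood test, Benjamini-Hochberg adjusted p under 0.05), 11.7% lower and 8.33% higher. With the experiment number added to the model as a block the same 4 members were called, beside 35.3%. The CPM of the groups did not overlap for 4 of the 10, beside 35.6% of all genes. The median log2 fold change was -0.35 over the members and 0.0047 over all genes tested. In a culture, fewer cells that make a transcript and less of it per cell cannot be told apart.

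Tgfa, transforming growth factor alpha, is a classical autocrine ligand of EGFR in epithelia. It was 232, 194 and 218 CPM in proliferating control cells of experiments 5, 7 and 9, and 139, 109 and 118 CPM in quiescent control cells. The groups did not overlap. edgeR gave a log2 fold change of -0.82 (SE 0.15; adjusted p 0.00419), and the call held in all 17 alternative fits.

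Areg, amphiregulin, binds EGFR and is shed by ADAM17. It was 39.6, 62.0 and 92.3 CPM in proliferating control cells and 21.8, 34.3 and 27.4 CPM in quiescent control cells of experiments 5, 7 and 9. The groups did not overlap, and the proliferating libraries differed among themselves 2.33-fold. Its log2 fold change was -1.22 (SE 0.33; adjusted p 0.0264 in edgeR). The call was lost without any of 4 libraries: proliferating control of experiment 7 (adjusted p 0.0630) or 9 (0.111, log2 fold change -0.87) and quiescent control of experiment 5 (0.103) or 9 (0.0739).

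Ereg, epiregulin, is a ligand of EGFR and ERBB4 and the next gene to Areg on the chromosome. It was 8.75, 15.6 and 19.5 CPM in proliferating control cells and 6.21, 7.83 and 5.49 CPM in quiescent control cells. The fitted log2 change was -1.17 (SE 0.37; adjusted p 0.0446 in edgeR). This call lay close to the threshold and was kept in 3 of 12 fits that left out 1 library, with adjusted p from 0.0160 to 0.157. The 9 that ended it left out any quiescent library, control or knockdown, proliferating control of experiment 7 or 9, or proliferating knockdown of experiment 7. A fit to the 6 control libraries alone gave -1.17 with an adjusted p of 0.0582 in edgeR.

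Hbegf, the heparin-binding ligand of EGFR and ERBB4, was 62.6, 133 and 57.7 CPM in proliferating control cells and 39.5, 39.6 and 37.8 CPM in quiescent control cells. In proliferating cells it was highest in experiment 7 with either hairpin, and quiescent control libraries lay within 1.05-fold of each other. The log2 fold change was -1.12 (SE 0.35; adjusted p 0.0441 in edgeR). Without proliferating control of experiment 7 it was -0.63 (adjusted p 0.199). In all, 4 of the 12 fits that left out 1 library kept the call. It was also lost without any quiescent library and without proliferating knockdown of experiment 9, with values from -1.12 to -1.09 there, and in a fit to the 6 control libraries alone (-1.11, adjusted p 0.0587 in edgeR).

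The other 2 ligands and the receptors were not called in this comparison. Btc, betacellulin, had a log2 fold change of -0.05 (SE 0.29) and Epgn, epigen, one of -0.65 (SE 0.68) at its few counts. Egfr was 133, 183 and 166 CPM in proliferating and 213, 180 and 166 CPM in quiescent control cells, a log2 fold change of 0.22 (SE 0.19; adjusted p 0.451 in edgeR). Erbb2 had a value of 0.10 (SE 0.19) and Erbb3 of 0.43 (SE 0.21; adjusted p 0.169 in edgeR). Errfi1, whose product binds the EGFR kinase and blocks it, was 83.9, 92.9 and 93.8 CPM in proliferating and 89.8, 90.8 and 98.3 CPM in quiescent control cells. Its log2 fold change was 0.04 (SE 0.14; adjusted p 0.856 in edgeR).

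In knockdown cells the same change of state was compared between quiescent and proliferating libraries. Of the 10 members 2 fell, Areg and Tgfa, and 0 rose, beside 18.4% of all genes called, 10.8% lower and 7.59% higher. With the block it was 3 of 10, all lower, beside 33.0% of all genes, 17.2% lower and 15.9% higher. The groups did not overlap for 2 of the 10, beside 37.2% of all genes. Tgfa was 215, 159 and 232 CPM in proliferating and 94.4, 89.8 and 106 CPM in quiescent knockdown cells (log2 fold change -1.06, SE 0.16; adjusted p 0.00137 in edgeR). Areg was 31.1, 46.9 and 27.4 CPM in proliferating and 5.94, 9.60 and 4.92 CPM in quiescent knockdown cells. Its log2 fold change was -2.37 (SE 0.36; adjusted p 0.00155 in edgeR), and this call and that of Tgfa held in all 17 alternative fits. These were the genes without overlap.

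Ereg, whose groups overlapped, had a log2 fold change of -0.99 (SE 0.36; adjusted p 0.0825 in edgeR) in knockdown cells and was past the threshold with the block (-0.93, edgeR adjusted p 0.0260) and by DESeq2 (-0.99, adjusted p 0.0429). It was also past it without proliferating knockdown of experiment 5 (-1.29, edgeR adjusted p 0.0259). Hbegf, which was 55.3, 138 and 79.6 CPM in proliferating and 75.7, 64.1 and 80.3 CPM in quiescent knockdown cells, had a value of -0.31 (SE 0.34; adjusted p 0.566 in edgeR). Its groups overlapped. The other 6 members had values between -0.21 and 0.22, and none was called.

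**Figure D2:**
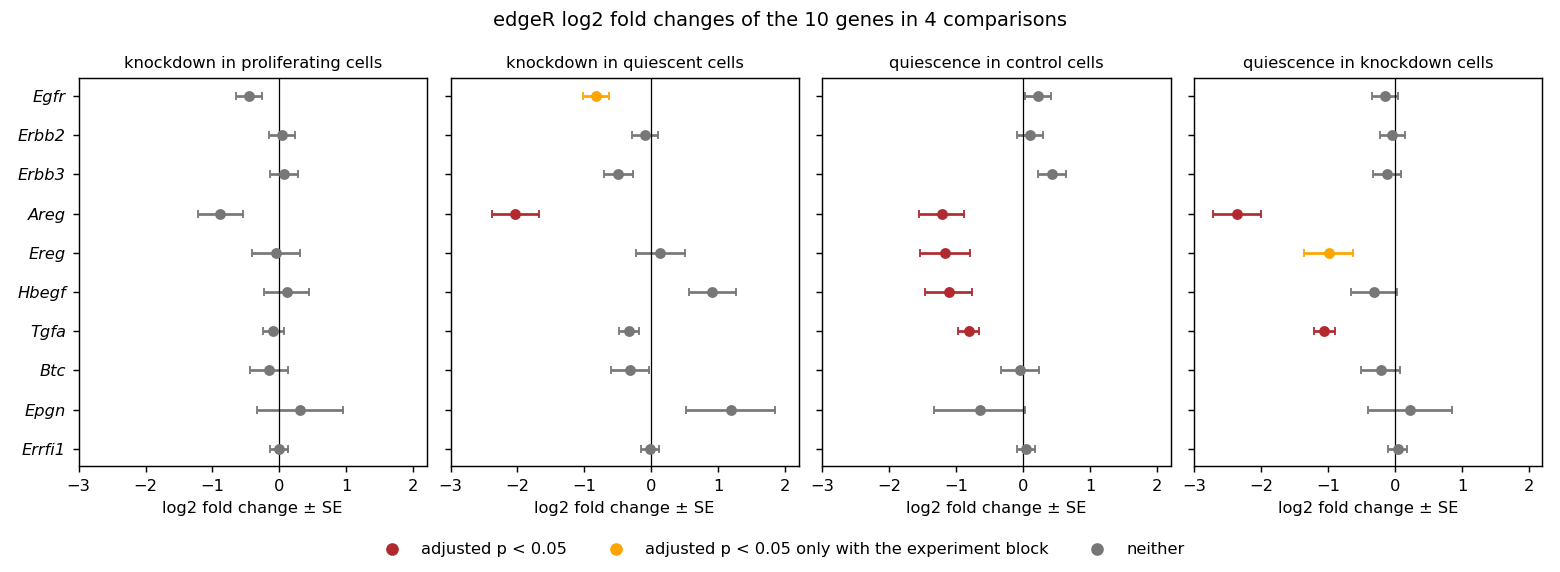
Log2 fold change with its SE (horizontal axis) of the 10 genes (vertical axis) in 4 comparisons, from the edgeR fit to all 12 libraries. Red points have an adjusted p under 0.05, orange points only with the experiment block; the 4 red points under quiescence in control cells are all ligands, between -1.22 and -0.82.

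The knockdown was then compared with the control hairpin within each state. In quiescent cells 1 of the 10 members was called, Areg, which fell, beside 0.435% of all genes called and 0.282% called lower. With the block it was 2 of 10, Areg and Egfr, both lower, beside 3.55% of all genes, 1.96% lower and 1.59% higher. These libraries of quiescent control cells also serve in the comparison of states above, so the values are set side by side and not counted as separate support.

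Areg went from 21.8, 34.3 and 27.4 CPM in quiescent control to 5.94, 9.60 and 4.92 CPM in quiescent knockdown cells of experiments 5, 7 and 9. The highest knockdown library lay below the lowest control library, and within experiments 27.6%, 28.3% and 18.3% of the control level was left. edgeR gave a log2 fold change of -2.03 (SE 0.35; adjusted p 0.0360, with the block 0.00668). It lay between -2.35 and -1.85 in all 17 alternative fits, with an adjusted p from 3.83e-06 (DESeq2) to 0.199. Leaving out 1 library ended the call in 7 of 12 fits, all run without the block. These were quiescent control of experiment 5 (adjusted p 0.0857), 7 (0.113) or 9 (0.140), quiescent knockdown of experiment 5 (0.168) or 9 (0.199), and proliferating control (0.0651) or knockdown (0.0558) of experiment 7. In those 12 fits the count over all genes also moved, between 5 and 64 in place of 54.

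Egfr was 213, 180 and 166 CPM in quiescent control and 76.0, 134 and 105 CPM in quiescent knockdown cells. The groups did not overlap, and 35.7%, 74.4% and 63.5% of the control level was left in experiments 5, 7 and 9. Its log2 fold change was -0.83 (SE 0.19; adjusted p 0.0981 in edgeR). It was past the threshold with the block (-0.85, edgeR adjusted p 0.0326), by DESeq2 (adjusted p 0.00566) and without quiescent knockdown of experiment 7 (-1.04, edgeR adjusted p 0.0498).

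Hbegf stood the other way, at 39.5, 39.6 and 37.8 CPM in quiescent control and 75.7, 64.1 and 80.3 CPM in quiescent knockdown cells. The groups did not overlap, and within experiments the difference in log2 CPM was 0.94, 0.69 and 1.08. The fitted log2 change was 0.91 (SE 0.35) and was not past the threshold (edgeR adjusted p 0.324, with the block 0.0932). A fit to the 6 quiescent libraries alone gave 0.90 with an adjusted p of 0.0461.

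The remaining receptors and ligands were not called after knockdown in quiescent cells, without or with the block. Erbb3 was 105, 86.2 and 123 CPM in control and 54.6, 82.6 and 86.1 CPM in knockdown cells, without overlap (log2 fold change -0.49, SE 0.21; adjusted p 0.387 in edgeR). Tgfa also did not overlap between the groups (log2 fold change -0.33, SE 0.15; adjusted p 0.426 in edgeR). With Areg, Egfr and Hbegf this made 5 of 10 members whose groups did not overlap, beside 19.1% of all genes tested. Erbb2, Ereg, Btc and Errfi1 had log2 fold changes from -0.32 to 0.13. Epgn had 1.18 (SE 0.67) at 2 to 18 counts a library in these groups.

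In proliferating cells the knockdown gave 0 called members, with either model, beside 0.0242% of all genes. At an unadjusted p under 0.05 in edgeR there were 2 of 10, Areg and Egfr, beside 228 of all 12406 genes. DESeq2 also called 0 members. Areg had a log2 fold change of -0.88 (SE 0.33; adjusted p 0.9998 in edgeR), and 78.5%, 75.6% and 29.8% of the control level was left in experiments 5, 7 and 9. Without the control library of experiment 9, which held the highest Areg level of all, the value was -0.53. Egfr was 119, 113 and 119 CPM in knockdown cells, below all 3 control libraries (log2 fold change -0.46, SE 0.19; adjusted p 0.9998 in edgeR). It was the 1 member without overlap, beside 5.31% of all genes. The values of the other 8 lay between -0.15 and 0.31.

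The interaction, which takes the difference of the 2 knockdown effects (quiescent less proliferating), had 0 called members and 0% of all genes called, in edgeR without and with the block, in DESeq2 and in all 12 fits that left out 1 library. At an unadjusted p under 0.05 in edgeR there were 219 genes. For Areg it was -1.15 (SE 0.48; adjusted p 0.9997 in edgeR, with the block 0.836), and this was the 1 member with an unadjusted p under 0.05. For Hbegf it was 0.81 (SE 0.49) and for Egfr -0.37 (SE 0.27). Within experiments the Areg difference was more negative in quiescent than in proliferating cells in 3 of 3 experiments. The effects of the knockdown on these genes were thus not shown to differ between the states.

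**Figure D3:**
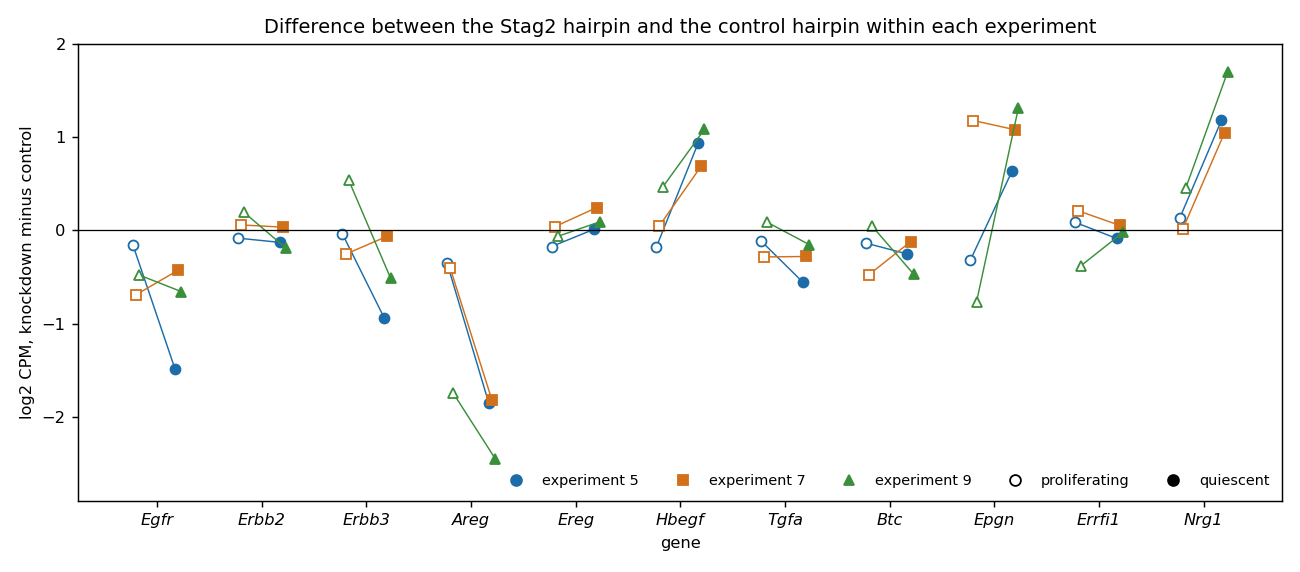
Log2 CPM of the knockdown minus the control library of the same experiment (vertical axis), for the 10 genes and Nrg1 (horizontal axis), in proliferating (open) and quiescent (filled) cells. All 6 differences are negative for Areg and Egfr, and the 3 filled points are at least 0.64 for Hbegf, Epgn and Nrg1.

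The makeup of the ligand pool was set out per exon length over Areg, Ereg, Hbegf, Tgfa, Btc, Epgn and Egf, as a description with no test. The sum was 117, 157 and 158 CPM per kb in proliferating control cells and 102, 139 and 116 in proliferating knockdown cells of experiments 5, 7 and 9. It was 70.3, 73.8 and 71.1 CPM per kb in quiescent control cells and 62.5, 59.9 and 66.8 in quiescent knockdown cells. Both quiescent groups lay below all proliferating libraries. Areg took 31.8% ± 6.34 (SD, n = 3) of the sum in control and 9.02% ± 3.71 (SD, n = 3) in knockdown cells, both quiescent. Hbegf took 22.9% ± 0.654 (SD, n = 3) and 48.9% ± 3.33 (SD, n = 3), and Tgfa 37.6% ± 5.54 (SD, n = 3) and 33.8% ± 1.08 (SD, n = 3). The sum was thus lower in all quiescent knockdown than in all quiescent control libraries (63.1 CPM per kb ± 3.47 against 71.7 ± 1.84, SD, n = 3), with a smaller share of Areg and a larger share of Hbegf. There were 1.16 to 1.81 Hbegf counts per Areg count in quiescent control libraries and 6.68 to 16.3 in quiescent knockdown libraries.

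**Figure D4:**
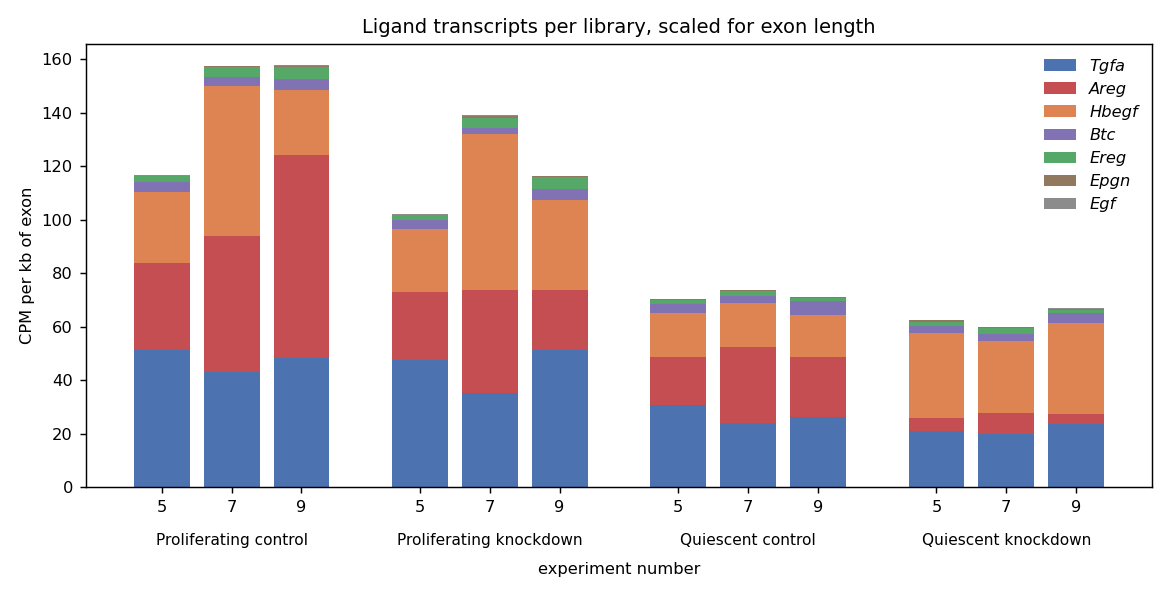
Stacked CPM per kb of exon (vertical axis) of 7 EGF receptor ligands in each library, by group and experiment number (horizontal axis). Quiescent libraries sum to between 59.9 and 73.8 CPM per kb, and the Areg part is smallest in quiescent knockdown cells.

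The neighbours of Areg on chromosome 5 were compared after knockdown in quiescent cells. Ereg, on one side, had a log2 fold change of 0.13 (SE 0.37), and Btc, 209 kb to the other side, had -0.32 (SE 0.29). The nearest tested genes outside the stretch were Mthfd2l, at 0.37 (SE 0.18; adjusted p 0.470 in edgeR), and Parm1, at -0.89 (SE 0.21; adjusted p 0.0968 in edgeR, with the block 0.0306). With quiescence in control cells Ereg and Areg both fell, Mthfd2l had -0.52 (SE 0.18; adjusted p 0.0667 in edgeR, with the block 0.0290) and Parm1 rose by 1.33 (SE 0.21; adjusted p 0.00151 in edgeR). The difference between Areg and its neighbours was not tested.

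Over the 12 libraries, which share groups and experiments, Areg had a Pearson r of 0.74 with Tgfa, 0.65 with Ereg, 0.58 with Egfr and 0.06 with Hbegf in log2 CPM. Among 10300 genes whose log2 CPM averaged 2 or more, those most like Areg were Taf9 (r 0.98), Mrpl12 (0.96), Mapk1ip1l (0.96), Ywhae (0.96) and B3galnt2 (0.95). All 5 had negative log2 fold changes in the 4 comparisons, from -0.84 to -0.21, smaller than those of Areg. Those most like Egfr were Cdc42bpa (r 0.95), Ncoa6 (0.94), Tjp1 (0.93), Daam1 (0.92) and Ston1 (0.92). Of these Ston1 was called after knockdown in quiescent cells, where it fell by 1.24 on the log2 scale (SE 0.19; adjusted p 0.0267 in edgeR). With the block Cdc42bpa (adjusted p 0.0422 in edgeR) and all 5 genes most like Areg (0.0207 to 0.0485) were called lower there too. All these genes were picked by their likeness over the same 12 libraries. Their direction in these comparisons thus follows largely from the choice and is no separate support.

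Nrg1, the neuregulin that binds ERBB3 and ERBB4, was 18.4, 30.7 and 19.6 CPM in quiescent control and 41.8, 63.7 and 64.0 CPM in quiescent knockdown cells. The groups did not overlap. The log2 fold change was 1.30 (SE 0.39; adjusted p 0.197 in edgeR), and it was past the threshold with the block (1.28, edgeR adjusted p 0.0226). In the other 3 comparisons Nrg1 had values from -0.49 to 0.56 and was not called, without or with the block.

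Genes around the receptors were counted from fixed lists. Of 11 genes of ligand shedding and trafficking, 1 rose and 3 fell with quiescence in control cells, beside 8.33% and 11.7% of all genes. With the block 2 rose and 3 fell, beside 16.8% and 18.5% of all genes. Rhbdf2, a partner that matures the sheddase ADAM17, rose from 54.2 CPM ± 1.38 (SD, n = 3) to 76.7 ± 7.76 (SD, n = 3), with a fitted log2 change of 0.50 (SE 0.12; adjusted p 0.0151 in edgeR). Adam12, a metalloprotease, fell from 421 CPM ± 80.7 (SD, n = 3) to 104 ± 49.3 (SD, n = 3), and Adam9 had a log2 fold change of -0.71 (SE 0.21; adjusted p 0.0325 in edgeR). Nkd2, which carries the TGF alpha precursor to the cell surface, fell from 1.56 CPM ± 0.384 (SD, n = 3) to 0.100 ± 0.0914 (SD, n = 3). Adam17 itself was not called in any comparison. In knockdown cells 0 rose and 4 fell with quiescence, beside 7.59% and 10.8% of all genes, with the largest changes among those called in Nkd2, Adam12 (-2.50) and Adam9 (-0.65). With the block Timp3, an inhibitor of metalloproteases, was called higher as well in control (2.11, adjusted p 0.00290 in edgeR) and knockdown cells (3.18, adjusted p 0.000363 in edgeR). Its level varied widely between libraries, at 3.51 CPM ± 4.75 (SD, n = 3) in proliferating and 20.0 ± 30.9 (SD, n = 3) in quiescent control cells, and it was named after its values were seen.

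Of 19 adaptors and RAS-RAF-MEK-ERK genes, 1 rose and 3 fell with quiescence in control cells, 4 in all, which is near the 20.0% of all genes called. With the block 2 rose and 4 fell, beside 35.3% of all genes called. The docking protein gene Gab1 rose from 19.6 CPM ± 7.20 (SD, n = 3) to 45.8 ± 4.20 (SD, n = 3), with a fitted log2 change of 1.22 (SE 0.26; adjusted p 0.00835 in edgeR). The adaptor gene Shc1 fell from 418 CPM ± 58.4 (SD, n = 3) to 194 ± 41.8 (SD, n = 3), and Ksr1, a scaffold of the cascade, and Nras had log2 fold changes of -1.01 and -0.48. In knockdown cells 0 rose and 4 fell, beside 18.4% of all genes called, with the largest changes in Ksr1 (-1.01) and Shc1 (-0.96). With the block 1 rose and 5 fell in knockdown cells, beside 33.0% of all genes called. Of 12 genes of the PI3 kinase, PLC and STAT branch, 2 fell in control cells, Src (-0.44) and Akt1 (-0.40), and 1 in knockdown cells, Akt1 (-0.44), counts near or below those shares. With the block 2 rose, Pik3r1 and Stat5b, and the same 2 fell in control cells, beside 35.3% of all genes called. In knockdown cells with the block 1 rose, Stat5b, and 2 fell, Akt1 and Src, beside 33.0%. Pik3r1 and Stat5b were named after their values were seen. Of 17 genes of receptor downregulation, 0 were called in control cells. At an unadjusted p under 0.05 in edgeR there were 3 of 17, beside 4314 of all 12406 genes. With the block 3 of 17 were called, beside 35.3% of all genes, so both counts lay below the shares of all genes. In knockdown cells 1 fell, Lrig1 (-0.90), a receptor antagonist at the membrane.

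MAPK output genes are known targets and feedback inhibitors of the ERK pathway. Of 17 such genes 1 rose and 8 fell with quiescence in control cells, with a median log2 fold change of -1.14 beside 0.0047 over all genes, and 1 rose and 9 fell in knockdown cells (median -0.94). Of all genes 20.0% and 18.4% were called in these comparisons. With the block 1 rose and 12 fell in control cells, and 2 rose and 12 fell in knockdown cells, beside 35.3% and 33.0%. Fosl1, an AP-1 subunit, fell from 48.4 CPM ± 17.3 (SD, n = 3) to 4.19 ± 2.61 (SD, n = 3) in control cells. Etv4, an ETS factor, fell from 65.0 CPM ± 11.3 (SD, n = 3) to 6.56 ± 3.15 (SD, n = 3), and Dusp6, an ERK phosphatase, from 172 ± 63.4 (SD, n = 3) to 30.8 ± 17.0 (SD, n = 3). In knockdown cells the largest log2 fold changes were those of Etv4 (-3.39), Fosl1 (-3.35) and Etv5 (-2.38). Spry1, a feedback inhibitor, rose in both (0.69 and 0.69), and Errfi1 stayed uncalled at 0.04 in both.

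After knockdown, 0 genes of these 5 lists were called in either state, beside 3 and 54 of all genes. At an unadjusted p under 0.05 in edgeR there were 1 of 76 in proliferating and 11 of 76 in quiescent cells, near the 228 and 1489 of all 12406 genes. With the block 2 of the 76 were called lower in quiescent cells, Adam10, a sheddase, and Pik3r2, a PI3 kinase subunit; both were named after their values were seen. This count is near the 1.96% of all genes called lower with the block. The MAPK output median log2 fold change was -0.09 in quiescent cells, beside 0.016 over all genes. Of these 17 genes 2 had an unadjusted p under 0.05 in edgeR, near the share of all genes.

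Summed levels of other lists are given for the quiescent groups, in which 0 genes of the urothelial, immune and proliferation lists were called after knockdown; with the block Pparg was called lower and Csf1r higher. The urothelial and epithelial markers summed to 22365 to 24131 CPM in quiescent knockdown and 13150 to 19955 in quiescent control libraries. Most of this gap lay in 3 keratins. From quiescent control to knockdown, Krt8 averaged 5903 and 8909 CPM, Krt18 4279 and 6127, and Krt19 2198 and 3149. Cdh1 went the other way, at 1921 and 1303 CPM. Of 17 markers tested, 12 had a positive log2 fold change. The 7 immune markers in the table summed to 110 to 170 CPM in quiescent knockdown and 39.7 to 61.9 in quiescent control libraries, nearly all from Csf1r. Ptprc, a marker of white blood cells, was at most 0.408 CPM in any library, and Cd3e was at 0. The 5 proliferation markers summed to 78.9 to 120 CPM in quiescent control and 104 to 199 in quiescent knockdown libraries, against 574 to 1145 in proliferating ones. Their part in the values of Areg, Egfr and Hbegf was not tested.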

How the data were processed

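Polyadenylated RNA of 12 NU1 cultures was sequenced with a stranded kit, per the labels' protocols. The table the authors deposited holds unnormalized counts, as whole numbers for each gene symbol. The submitters' processing notes name Bowtie, TopHat, HTSeq, DESeq2 and mm10; the gene annotation and whether counting was stranded are not given in the sources used here, so overlapping genes cannot be separated. No spike-in rows were in the table (0), and no column was left unmapped (0).

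The analysis used edgeR 4.0.16 under R 4.3.3, with these settings: filterByExpr (minimum count 10), TMM, 4 group means over 12 libraries, glmQLFit and glmQLFTest, adjusted over 12406 genes with a threshold of 0.05. SE is the log2 fold change divided by the root of the F statistic. Log2 CPM used a prior count of 2. Lengths and coordinates came from GENCODE M21 and RefSeq tables of the same build as mm10. Replicate pairs differed far beyond sampling noise (chi-square per degree of freedom 36.6 to 99.7). Counting precision ignores PCR copies.

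Experiment number coincides with the labels' batch, which is where the pairing comes from. Deviations from group means correlated with a mean r of 0.526 over 18 same-number pairs, and -0.259 over 36 others. Taking deviations from group means makes the second value negative when the first is positive, so it is no separate observation. The block adds this number. On simulated counts for knockdown in quiescent cells (12300 and 12290 genes), 42.9% of 200 genes changed 2-fold and 82.0% of 200 changed 4-fold were recovered. Of the genes called, 4.49% and 2.38% were unchanged ones. The simulation had no experiment effect, and all other genes had the same mean in every group. These shares therefore need not hold for the real libraries. The members, the lists and the alternatives were chosen with earlier results of these data known. Genes named are the members and related receptors and ligands, Stag2, at most 3 called genes per list, direction and comparison with the largest change, 5 genes most like Areg and Egfr, and the neighbours of the chromosome 5 genes. DESeq2 1.42.0, median-of-ratios factors, no filter, fits to the contrast's libraries and leaving out each library were the other alternatives, all run without the block.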

Additional observations from a re-analysis of the deposited data

How the results depend on the processing

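Counts of called members for knockdown in quiescent cells were 1 in the fit reported, 2 with the replicate block (Areg and Egfr), 2 by DESeq2 (the same 2) and 2 with only the quiescent libraries (Areg and Hbegf), and 0 to 2 on leaving out 1 library. For quiescence in control cells the 4 members became 2, Areg and Tgfa, with only the libraries of the contrast, and 1 to 4 on leaving out 1 library. For quiescence in knockdown cells it was 2, 3 with the replicate block and by DESeq2 (Ereg added), and 2 to 3 on leaving out 1 library. For knockdown in proliferating cells and the interaction it was 0 in every fit run; the interaction needs all libraries, so it has no fit to fewer groups. Over all genes, the replicate block gave 440 in place of 54 for knockdown in quiescent cells, 4374 in place of 2481 for quiescence in control cells and 4096 in place of 2279 in knockdown cells, and moved the other 2 counts by less than 1.5 times. DESeq2 gave 377 for knockdown in quiescent and 12 in place of 3 in proliferating cells; the libraries of the contrast alone gave 1 there and 1582 for quiescence in control cells. Leaving out 1 library gave 1 to 3 and 5 to 64 genes for the knockdown in proliferating and quiescent cells, and 1394 to 3078 and 1186 to 2408 for quiescence in control and knockdown cells. The cause of these shifts was not tested. The block changed the calls of Egfr and Ereg given above and of no other member. Leaving out 1 library changed the sign of 23 values, all uncalled, whose ranges were as follows. For knockdown in proliferating cells they were Hbegf -0.33 to 0.60, Ereg -0.31 to 0.25, Errfi1 -0.16 to 0.12, Erbb2 -0.15 to 0.22, Erbb3 -0.11 to 0.18, Tgfa -0.21 to 0.054, Btc -0.35 to 0.049 and Epgn -0.70 to 0.63. For knockdown in quiescent cells they were Errfi1 -0.057 to 0.038 and Ereg -0.10 to 0.28. For quiescence in control cells they were Errfi1 -0.0069 to 0.079, Erbb2 -0.10 to 0.28 and Btc -0.36 to 0.15. For quiescence in knockdown cells they were Erbb2 -0.18 to 0.063, Epgn -0.11 to 1.23, Hbegf -0.57 to 0.12, Errfi1 -0.10 to 0.19, Egfr -0.35 to 0.033 and Erbb3 -0.24 to 0.057. For the interaction they were Errfi1 -0.14 to 0.14, Erbb2 -0.32 to 0.052, Ereg -0.12 to 0.44 and Btc -0.37 to 0.15. The count of Epgn was 20 at most, which limits its precision.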
